A study of Mus musculus with 23 samples.

Results

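The pyruvate dehydrogenase complex turns pyruvate into acetyl-CoA inside mitochondria and so sets how much carbon from glucose enters the citric acid cycle. Its core enzymes are E1, with an alpha subunit from Pdha1 and a beta subunit from Pdhb, and E2, from Dlat, with Pdhx encoding the protein that holds E3 on the E2 core. Pyruvate dehydrogenase kinases (Pdk1, Pdk2, Pdk3 and Pdk4) phosphorylate E1 and switch the complex off, and the phosphatases whose catalytic subunits come from Pdp1 and Pdp2 remove the phosphate and switch it on. Pdk4 is the kinase best known for rising in fasted heart, muscle and kidney, where glucocorticoids, fatty acids acting on PPAR receptors and FOXO factors raise it and insulin lowers it.

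These 10 genes were described among 54393 genes in connecting tubule and cortical collecting duct dissected from mouse kidney. Each gene's Ensembl identifier was matched to its symbol in the GENCODE annotation, and all 10 were in both deposited tables and passed the filter on low counts, with 25829 genes tested. Pdk4 was selected on its measured counts, because its level in knockout tubules on normal potassium was far above that in controls on normal potassium. The other 9 were taken for their place in the complex.

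All mice carried Pax8-rtTA, TRE-LC-1 and floxed MR alleles (MRflox/flox). MR is the mineralocorticoid receptor, encoded by Nr3c2, and the Pax8 promoter drives the doxycycline-dependent Cre system along the renal tubule, beyond the segment dissected here. Knockout mice drank 2 mg/ml doxycycline with 5% sucrose over 2 weeks and then had a washout of 2 weeks on a rescue diet. Controls of the same genotype drank 5% sucrose without doxycycline, so that loss of the receptor and exposure to doxycycline cannot be told apart. The labels do not say whether controls also had the rescue diet and washout, and where they did not, these too cannot be told apart from the knockout. For 4 days the mice then ate low potassium (KO-LK, 6 libraries of knockout tubules), normal potassium (KO-NK, 6 libraries of knockout tubules), high potassium (CT-HK, 6 libraries of control tubules) or normal potassium (CT-NK, 5 libraries of control tubules). The labels give no age and do not tie libraries to animals, and p-values therefore speak only of the variation among these libraries, part of which may be technical.

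Libraries held 16158408 to 34154475 estimated counts. Nr3c2 itself had a median of 52.3 CPM in KO-LK and 58.4 CPM in KO-NK, against 112 CPM in CT-HK and 117 CPM in CT-NK. Single libraries overlapped, with 34.2 to 74.1 CPM in KO-LK and 47.7 to 71.5 CPM in KO-NK, against 70.2 to 145 CPM in CT-HK and 66.6 to 152 CPM in CT-NK. CPM here is the count scaled to library size after TMM scaling, which sets libraries on a common scale from the bulk of their genes. The markers Aqp2 of principal cells, Calb1 of connecting tubule and Slc26a4 of beta intercalated cells were present in every group, with Aqp2 at a mean of 1959 CPM in KO-LK, 2204 CPM in KO-NK, 3759 CPM in CT-HK and 3043 CPM in CT-NK. The summed CPM of 16 connecting tubule and principal cell markers was 12540 to 27530 in KO-LK and 12610 to 26320 in KO-NK, against 27300 to 74470 in CT-HK and 35020 to 49920 in CT-NK. That sum is weighted to the most abundant markers. Taken singly, the 16 markers had a median log2 fold change of 0.058 in KO-NK over CT-NK and 0.095 in KO-LK over CT-HK. Mitochondrially encoded genes took a median of 9.94% of counts in KO-LK and 10.4% in KO-NK, against 14.0% in CT-HK and 16.5% in CT-NK. In 8 libraries olfactory and vomeronasal receptor genes together exceeded 2500 CPM, 3 in KO-LK, 2 in KO-NK, 1 in CT-HK and 2 in CT-NK. In bulk tubules, fewer cells of a type and less RNA per cell cannot be told apart.

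Promoter sequences are shown for the member whose level differed most between genotypes, Pdk4, and for Pdhb. Pdhb is the most abundant subunit per unit of transcript length, and it moved the other way on the CPM scale. They are RefSeq windows of GRCm38.p6 from 250 bases before to 50 after the annotated start, both on the minus strand, at chr6:5496229-5496528 for Pdk4 and chr14:8172943-8173242 for Pdhb. Capitals mark the CCAAT box (read as ATTGG on the other strand) and the GC box GGGCGG.
Pdk4: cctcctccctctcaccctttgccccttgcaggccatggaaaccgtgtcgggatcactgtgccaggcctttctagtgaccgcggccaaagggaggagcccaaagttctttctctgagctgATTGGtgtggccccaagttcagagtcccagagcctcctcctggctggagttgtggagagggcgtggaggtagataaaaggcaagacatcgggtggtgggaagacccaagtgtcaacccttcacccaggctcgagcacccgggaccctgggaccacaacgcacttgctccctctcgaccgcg
Pdhb: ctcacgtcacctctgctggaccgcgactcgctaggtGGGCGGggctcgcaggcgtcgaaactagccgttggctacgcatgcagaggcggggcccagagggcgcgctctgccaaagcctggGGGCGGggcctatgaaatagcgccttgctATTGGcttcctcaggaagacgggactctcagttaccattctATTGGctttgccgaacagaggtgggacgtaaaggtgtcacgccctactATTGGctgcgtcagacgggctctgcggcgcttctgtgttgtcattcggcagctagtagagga

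The Pdk4 window held 1 CCAAT box and no GC box, and the Pdhb window held 3 CCAAT boxes and 2 GC boxes. Among all 32851 promoter windows of this length, 37.4% held a CCAAT box and 35.7% a GC box on either strand. The Pdk4 window also held no match to AGAACA, the core letters read by the glucocorticoid and mineralocorticoid receptors, which 19% of all windows hold, to the FOXO letters TGTTTAC (3.65% of windows), to the nuclear receptor letters AGGTCA (16.3%) or to TGACG of the cyclic AMP response element (20.8%). Of the 9 genes with a window (11 windows in all; Pdp1 was not searched), Pdk1 was the only one with AGAACA, in 2 matches at 1 of its start sites. A match of letters is not a binding site, and sites outside these windows were not searched.

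Per unit of transcript length, Pdk2 was the most abundant kinase in every group and Pdk4 the least abundant in controls. In TPM, the deposited length-scaled share of transcripts, Pdk2 averaged 78.9 ± 6.82 in KO-LK, 86.2 ± 11.1 in KO-NK, 71.2 ± 11.7 in CT-HK and 76.2 ± 9.82 in CT-NK (SD, n = 6, 6, 6 and 5). Pdk3 averaged 30.6 ± 5.35, 24.5 ± 4.55, 27.0 ± 2.45 and 27.8 ± 4.76 TPM in KO-LK, KO-NK, CT-HK and CT-NK. Pdk1, known as a hypoxia-induced kinase, averaged 20.3 ± 3.4, 20.5 ± 1.8, 26.2 ± 7.29 and 18.4 ± 5.61 TPM in the same groups. The ranges of Pdk1 and Pdk3 overlapped in each group. Within single libraries Pdk3 was above Pdk1 in 6 of 6 KO-LK, 5 of 6 KO-NK, 4 of 6 CT-HK and 4 of 5 CT-NK libraries.

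Pdk4 (ENSMUSG00000019577, GRCm38 chromosome 6, 5483351 to 5496309, minus strand) stood at a lowest, median and highest level of 9.15, 15.7 and 18.1 TPM in KO-LK and 19.96, 35.3 and 57.7 TPM in KO-NK. In CT-HK the same 3 values were 1.92, 3.03 and 3.83 TPM, and the CT-NK libraries held 1.82, 3.88, 9.31, 2.92 and 1.46 TPM. KO-NK lay above every other group, and KO-LK above all controls but CT-NK replicate 3, which passed the lowest KO-LK library by a small margin. In KO-NK the Pdk4 level thus exceeded that of Pdk1 in 6 of 6 libraries, by a small margin in replicate 5, while in every control library it was the lowest of the 4 kinases.

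**Figure D1:**
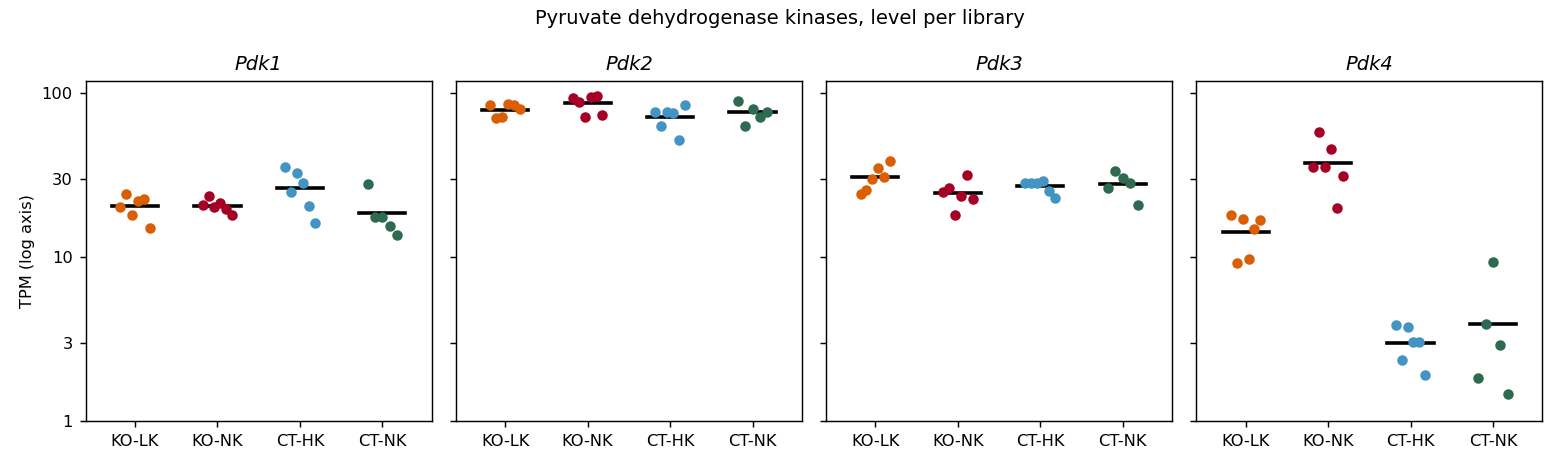
Level of each kinase gene per library in TPM on a log axis, with points for libraries and a bar for each group mean. Pdk4 spans 19.96 to 57.7 TPM in KO-NK and 9.15 to 18.1 TPM in KO-LK, against 1.92 to 3.83 TPM in CT-HK and 1.46 to 9.31 TPM in CT-NK, while Pdk2 stays between 51.9 and 95.9 TPM throughout.

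As a share of the 4 kinases' summed TPM, Pdk4 made up 9.87% ± 2.63 in KO-LK and 22.04% ± 5.86 in KO-NK, against 2.35% ± 0.54 in CT-HK and 3.02% ± 2.28 in CT-NK (SD, n = 6, 6, 6 and 5). The highest control share, 6.8% in CT-NK replicate 3, lay just above the lowest KO-LK share of 6.40%. The summed TPM of Pdk1, Pdk2 and Pdk3 was 130 ± 9.23 in KO-LK and 131 ± 15.7 in KO-NK, against 124 ± 15.99 in CT-HK and 122 ± 13.5 in CT-NK. That sum overlapped between all 4 groups.

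On the CPM scale used for testing, Pdk4 was at a lowest, median and highest level of 72.2, 124 and 233 CPM in KO-NK, against 10.5, 10.8, 30.9, 11.3 and 7.54 CPM in the CT-NK libraries. No library of one group reached the other, as for 2.14% of all tested genes. The log2 fold change of KO-NK over CT-NK was 3.23 (SE 0.35), which chose the gene and is given without a p-value, and 3.73 without CT-NK replicate 3. KO-LK held 31.1 to 57.4 CPM with a median of 51.0, against 9.25 to 20.4 CPM with a median of 13.4 in CT-HK. These groups did not overlap either, as for 3.99% of all tested genes in this comparison. The log2 fold change of KO-LK over CT-HK was 1.73 (SE 0.31), in libraries other than those that chose the gene but with their results already known, so no p-value is given for it either. In that comparison genotype and diet differ together.

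Within knockout, Pdk4 averaged 46.4 ± 12 CPM on low potassium (KO-LK) and 133 ± 55.7 CPM on normal potassium (KO-NK; SD, n = 6 each). The ranges did not overlap, and the log2 fold change of KO-LK over KO-NK was -1.52 (SE 0.31). The KO-NK libraries are those on which Pdk4 was chosen, so no p-value is given here and the value is a description. Of all tested genes, 0.275% did not overlap between these groups, from which nothing is read for Pdk4. Across all genes edgeR called none in this comparison (0% of 25829), where 359 genes were higher and 373 lower at an unadjusted p below 0.05, and DESeq2 called 13 higher and 11 lower.

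Within control, Pdk4 averaged 13.9 ± 3.96 CPM on high potassium (CT-HK, n = 6) and 14.2 ± 9.46 CPM on normal potassium (CT-NK, n = 5; SD). The log2 fold change of CT-HK over CT-NK was -0.03 (SE 0.32), with a 95% interval of -0.68 to 0.63. The CT-NK libraries also took part in the choice of Pdk4, so no p-value is given. Without CT-NK replicate 3 the value was 0.48. The difference between the diet effects in knockout and control was not tested.

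The other 3 kinases were at or below their control level in knockout on the CPM scale. Pdk1 stood at 63.5, 83.3 and 113 CPM (lowest, median and highest) in KO-LK, against 106, 154 and 183 CPM in CT-HK. The groups overlapped by 2 KO-LK libraries above the lowest CT-HK library. The log2 fold change of KO-LK over CT-HK was -0.80 (SE 0.20, adjusted p = 0.0142 in edgeR's quasi-likelihood test). Between KO-NK and CT-NK the value for Pdk1 was -0.23 (SE 0.21, adjusted p = 0.794). Between the control diets Pdk1 stood at 0.60 (CT-HK over CT-NK, log2, SE 0.21, unadjusted p = 0.0081, adjusted p = 1).

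Pdk3 fell by 0.43 on the log2 scale (SE 0.12, adjusted p = 0.0201 by edgeR) when both knockout groups were set against both control groups. That comparison, called over both diets from here on, sets low and normal potassium in knockout against high and normal potassium in control. Genotype and diet thus differ together in part of it. Pdk3 averaged 57.1 ± 13.5 CPM in knockout and 77.2 ± 11.4 CPM in control (SD, n = 12 and 11), with overlapping ranges. Pdk2 had a value of -0.29 (SE 0.13, adjusted p = 0.186) in the same comparison and did not pass. On log2(TPM + 1), limma gave -0.07 for Pdk1 (adjusted p = 0.682) and -0.01 for Pdk3 (adjusted p = 0.959) over both diets, and neither was called on that scale. Without CT-NK replicate 1 the value for Pdk1 over both diets was -0.40 (adjusted p = 0.0519 by edgeR). With no filter on low counts Pdk3 had an adjusted p of 0.0639 in edgeR.

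The phosphatases differed from each other. Pdp1, which encodes the calcium-responsive phosphatase, averaged 23.4 ± 4.44 CPM in knockout and 16.9 ± 4.4 CPM in control (SD, n = 12 and 11). Its CPM ranges overlapped, and the log2 fold change of 0.48 (SE 0.14) passed edgeR's test over both diets (adjusted p = 0.0238). Without CT-NK replicate 4 the adjusted p was 0.0545, and without CT-NK replicate 5 it was 0.0519. It also no longer passed with no filter (0.43, adjusted p = 0.176) or with tubule segment scores as covariates (0.47, adjusted p = 0.0737). On normal potassium alone the value was 0.65 (KO-NK over CT-NK, SE 0.20, adjusted p = 0.109), and on the test diets 0.31 (KO-LK over CT-HK, SE 0.19, adjusted p = 0.497).

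In TPM, Pdp1 stood at 7.23 to 9.98 TPM in KO-LK and 7.13 to 11.9 TPM in KO-NK, against 3.35 to 6.48 TPM in CT-HK and 3.91 to 5.13 TPM in CT-NK. Every knockout library was above every control library, and the share of all genes separated in this way in TPM was not counted. On log2(TPM + 1), limma gave a difference of 0.88 for KO-NK over CT-NK (adjusted p = 0.00044) and 0.73 for KO-LK over CT-HK (adjusted p = 0.00051). The median of all tested genes shifted there by 0.21 and 0.23. On that scale limma called 2907 and 6632 of 25829 genes higher in these comparisons, and 134 and 220 lower. Pdp2, which encodes the insulin-responsive phosphatase, stood at -0.30 on log2 CPM over both diets (SE 0.14, adjusted p = 0.222), with 26.5 ± 5.04 CPM in knockout and 32.7 ± 10 CPM in control. In TPM, Pdp1 was on average above Pdp2 in all groups, by a log2 ratio of 1.11 ± 0.35 in KO-LK and 0.97 ± 0.26 in KO-NK, against 0.34 ± 0.62 in CT-HK and 0.18 ± 0.36 in CT-NK.

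The log2 ratio of the summed TPM of Pdk1, Pdk2 and Pdk3 to that of Pdp1 and Pdp2 does not use Pdk4 and does not depend on how libraries are scaled. It was 3.40 ± 0.12 in KO-LK (3.28 to 3.56) and 3.24 ± 0.18 in KO-NK (2.99 to 3.46), against 3.87 ± 0.13 in CT-HK (3.72 to 4.05) and 3.85 ± 0.17 in CT-NK (3.63 to 4.11). All 12 knockout libraries lay below all 11 control libraries in TPM. The difference was -0.60 for KO-NK over CT-NK (exact two-sided permutation test, p = 0.0043, adjusted over 5 comparisons 0.0072). It was -0.47 for KO-LK over CT-HK (exact two-sided permutation test, p = 0.0022, adjusted 0.0054). Each is the smallest p these group sizes allow. With CPM in place of TPM the ranges overlapped, with 5 of 12 knockout libraries below the lowest control, and the differences were -0.43 for KO-NK over CT-NK and -0.38 for KO-LK over CT-HK (exact permutation test, adjusted p = 0.0216 for each).

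Over both diets the difference in the ratio was -0.54 (permutation test with 2e-05 as the smallest p it can give, p = 2e-05, adjusted 0.0001). It was 0.15 between KO-LK and KO-NK (exact permutation p = 0.123, adjusted 0.154) and 0.02 between CT-HK and CT-NK (exact permutation p = 0.831, adjusted 0.831). The summed phosphatase level was 12.4 ± 1.47 TPM in KO-LK and 13.9 ± 1.96 TPM in KO-NK, against 8.59 ± 1.55 TPM in CT-HK and 8.48 ± 0.44 TPM in CT-NK. With Pdk4 added to the kinases the log2 ratio was 3.55 ± 0.12 in KO-LK and 3.61 ± 0.18 in KO-NK, against 3.90 ± 0.14 in CT-HK and 3.89 ± 0.17 in CT-NK, so the sum of all kinase transcripts relative to phosphatase transcripts was not higher in knockout on average.

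**Figure D2:**
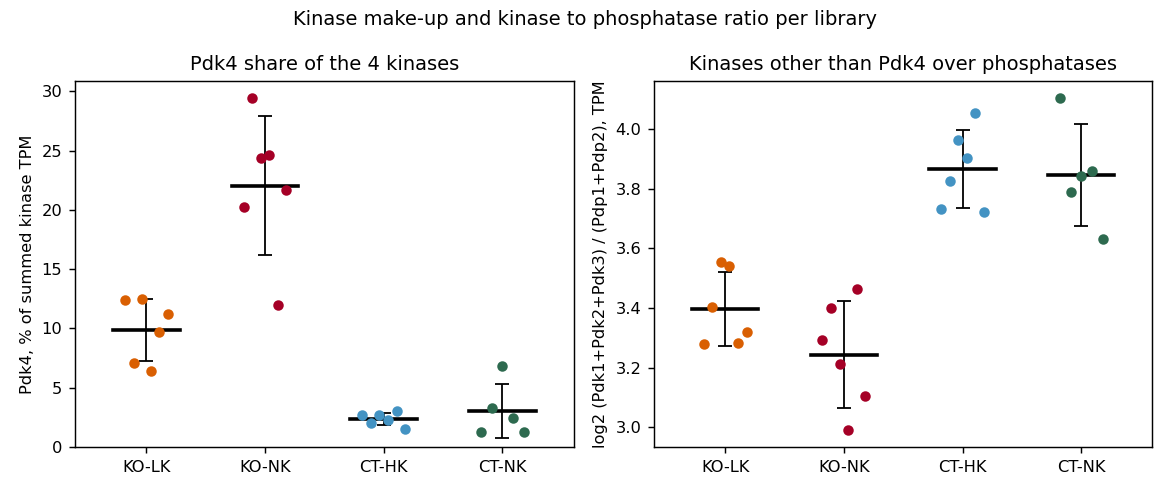
Left, Pdk4 as a percent of the summed TPM of the 4 kinases; right, the log2 ratio of the summed TPM of Pdk1, Pdk2 and Pdk3 to that of Pdp1 and Pdp2 (the axis does not start at 0). Points are libraries and bars are mean ± SD: the Pdk4 share averages 22.04% in KO-NK and 2.35% in CT-HK, and the ratio is 2.99 to 3.56 in knockout and 3.63 to 4.11 in control.

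On the CPM scale the complex itself was lower in KO-LK than in CT-HK, where genotype and diet differ together. Between KO-NK and CT-NK no subunit was called by edgeR. Pdha1 stood at 213, 265 and 331 CPM (lowest, median, highest) in KO-LK, against 379, 501 and 591 CPM in CT-HK. Pdhb stood at 281, 291 and 377 CPM in KO-LK, against 387, 497 and 565 CPM in CT-HK. Dlat stood at 87.3, 100.1 and 128 CPM in KO-LK, against 137, 169 and 210 CPM in CT-HK. Pdhx stood at 39.1, 50.3 and 52.8 CPM in KO-LK, against 60.9, 78.7 and 101 CPM in CT-HK. None of these 4 genes overlapped between the groups, as for 3.99% of all tested genes.

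The log2 fold changes of KO-LK over CT-HK were -0.86 for Pdha1 (SE 0.20, adjusted p = 0.0085), -0.65 for Pdhb (SE 0.15, adjusted p = 0.0092), -0.71 for Dlat (SE 0.18, adjusted p = 0.0165) and -0.71 for Pdhx (SE 0.17, adjusted p = 0.0105), by edgeR's quasi-likelihood test. With Pdk1, 5 of the 9 genes other than Pdk4 were thus called in this comparison, all lower, where 5.49% of all tested genes were called (3.29% lower and 2.2% higher). Without the 8 libraries rich in receptor genes 3 were called, as Pdk1 (-0.61, adjusted p = 0.141) and Dlat (-0.59, adjusted p = 0.0597) no longer passed edgeR's test. Between KO-NK and CT-NK none of the 9 was called by edgeR, where 1.7% of all tested genes were, though Pdk3, Pdp1, Pdha1 and Pdhx had an unadjusted p below 0.05 as did 11.7% of all tested genes, and DESeq2 called 1 (Pdp1), against 7.31% of the genes it tested. The 4 subunits had log2 fold changes of -0.44 to -0.29 there, or -0.59 to -0.44 relative to the median of all tested genes. Single libraries moved these relative values. They were -0.27 to -0.15 without KO-NK replicate 3 and -0.79 to -0.51 without CT-NK replicate 2. In CT-HK over CT-NK the 4 subunits had log2 fold changes of 0.24 to 0.33. All 9 genes were positive there, where 50.9% of all tested genes were negative. For these control diets edgeR called none of the 9, and 0% of all genes. At an unadjusted p below 0.05 in edgeR, 570 genes were higher and 357 lower, and DESeq2 called 8 higher and 9 lower.

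Over both diets, with low potassium only in knockout and high potassium only in control, 7 of the 9 were called. Of all tested genes 10.5% were called, 5.86% lower and 4.67% higher. Pdha1 (-0.65), Pdhb (-0.47), Dlat (-0.52), Pdhx (-0.54), Pdk1 (-0.52) and Pdk3 (-0.43) were lower and Pdp1 (0.48) was higher on the log2 scale. The median log2 fold change of all tested genes in that comparison was 0.09, and that of the 9 was -0.47. Without the libraries rich in receptor genes 5 were called, as Pdk1 (-0.49, adjusted p = 0.0549) and Pdk3 (-0.35, adjusted p = 0.0608) no longer passed edgeR's test. Ranges of the 4 subunits overlapped between the 12 knockout and 11 control libraries. For Pdha1 this came from CT-NK replicate 2 alone, at 195 CPM against a highest knockout level of 344 CPM. For Pdhb, Dlat and Pdhx, CT-NK replicates 4 and 5 also lay below the highest knockout library. CT-NK replicate 5 held 401, 115 and 55.4 CPM of them, against highest knockout levels of 411, 131 and 59.6 CPM. For Pdhb, CT-HK replicates 4 and 6 lay below the highest knockout library as well, at 387 and 407 CPM. Over both diets 0.67% of all tested genes did not overlap.

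**Figure D3:**
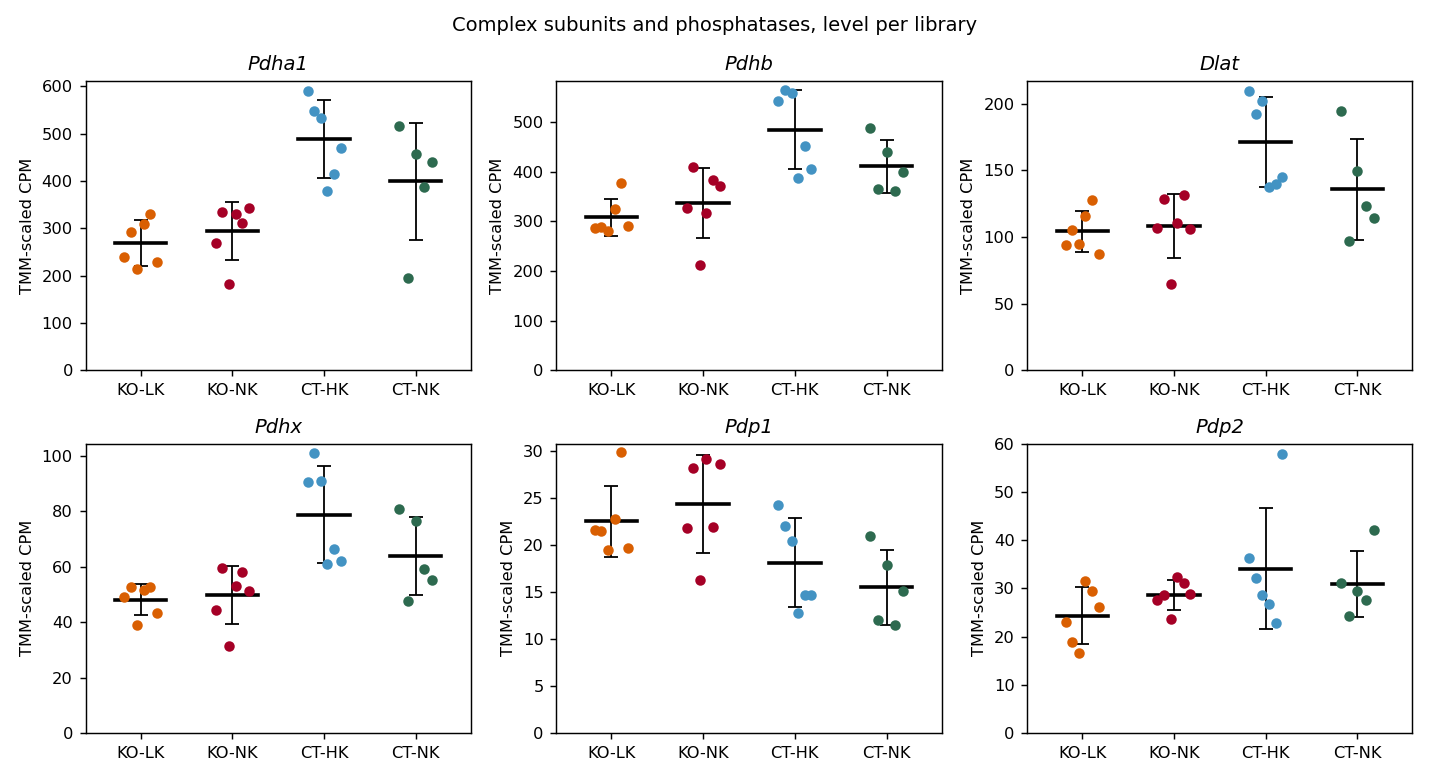
TMM-scaled CPM of the 4 subunit and 2 phosphatase genes per library, from 0, with mean ± SD over the 6, 6, 6 and 5 libraries of KO-LK, KO-NK, CT-HK and CT-NK. The subunit genes are lower in KO-LK than in every CT-HK library (for example 213 to 331 CPM against 379 to 591 CPM for Pdha1), a difference that is smaller per TPM.

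The falls of the subunits depended on how libraries were put on one scale. In deposited TPM, the summed level of the 4 subunits was 379 ± 20.9 in KO-LK and 400.2 ± 50.9 in KO-NK, against 423 ± 65.5 in CT-HK and 399 ± 33.6 in CT-NK (SD), with overlapping ranges. In limma on log2(TPM + 1) the subunits differed over both diets by -0.18 to -0.02, none of them called, while the median of all tested genes shifted by 0.22 and 7829 genes were called higher against 332 lower. Relative to that median the subunits stood at -0.40 to -0.24, and relative to the median of 0.09 in the CPM fit at -0.74 to -0.56. The TMM factors that scale each library had medians of 1.15 in KO-LK and 1.05 in KO-NK, against 0.84 in CT-HK and 0.89 in CT-NK. With transcript length as an offset in the TMM-scaled fit, the subunits kept -0.61 to -0.43 and were called.

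The lower share of mitochondrially encoded genes and the lower summed connecting tubule and principal cell markers, given above, moved with the falls of the subunits. Their part in those falls was not tested. Of the 16 markers taken singly, 9 were positive and 7 negative over both diets, with a median log2 fold change of 0.07. All 25 proximal tubule markers were negative over both diets, 9 of them called, with a median log2 fold change of -2.07. Their summed level ranged over 570 to 2224 CPM in KO-LK and 1404 to 7717 CPM in KO-NK, against 391 to 43100 CPM in CT-HK and 734 to 24530 CPM in CT-NK. Over both diets edgeR called 2 of 16 connecting tubule and principal cell markers higher and 4 lower, 1 of 13 thick ascending limb and distal convoluted tubule markers higher and 1 lower, 1 of 14 intercalated cell and 1 of 11 fibroblast, pericyte and smooth muscle markers lower, 1 of 7 adipocyte and skeletal muscle markers higher, and none of 10 endothelial or 11 leukocyte markers. Beside all these marker counts stand 4.67% of all tested genes called higher and 5.86% lower over both diets. With proximal tubule and thick limb scores as covariates the subunits were at -0.66 to -0.49 over both diets and still called.

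**Figure D4:**
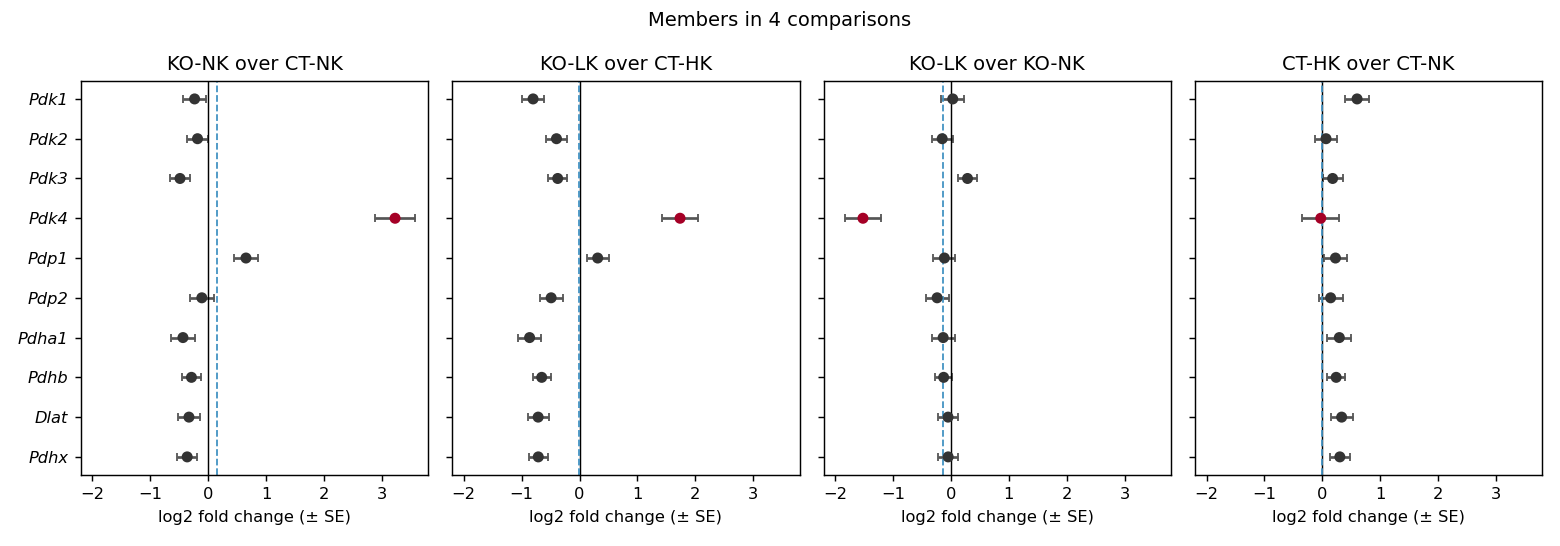
Log2 fold change (± SE) of the 10 genes in 4 comparisons, with Pdk4 in red and the dashed line at the median of all tested genes. Pdk4 stands at 3.23 and 1.73 in the 2 knockout comparisons and at -1.52 in KO-LK over KO-NK, and the 4 subunits at -0.86 to -0.65 in KO-LK over CT-HK.

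Across the 23 libraries the 4 subunits followed each other on log2 CPM, with Pearson r of 0.88 to 0.96 for their 6 pairs. After group means were subtracted r was 0.75 to 0.93, so most of it was also present within groups. Pdk4 had r of -0.58 to -0.27 with the 8 members other than Pdp1, and 0.69 with Pdp1. With group means removed, Pdk4's r ranged from -0.13 (Pdp2) to 0.45 (Pdp1). The points share libraries, scaling factors and depth, so these are descriptions. The spread within groups was largest for Pdk4, with an SD of 0.55 on log2 CPM, against 0.25 to 0.36 for the other 9.

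The genes whose log2 CPM was most like that of Pdk4 over the 23 libraries, among 10590 named genes of at least 5 CPM, were Tgif1 (Pearson r = 0.95), Klf10 (0.94), Klf11 (0.94), Mob3a (0.94), Ppp1r15a (0.92) and Gem (0.92). Those most opposed were Klk1b8 (-0.88), Ciart (-0.85) and Nudt8 (-0.81). With group means removed, the closest were Zfp867 (0.81), Klf11 (0.77), Fgf9 (0.76), Klf10 (0.76), Slc38a2 (0.75) and Plppr1 (0.74), and the most opposed were Lonrf1 (-0.67), Zfp697 (-0.67) and Slc9a3 (-0.64). Klf10 and Klf11 were in both lists. The lists are the extremes of the same genes over the same 23 libraries, and the first includes the group difference on which Pdk4 was chosen. The shared names are therefore a description and not separate support.

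Around the complex, other genes of pyruvate entry and mitochondrial oxidation were mostly lower in knockout over both diets. Of 14 genes for E3 and lipoate attachment, which supply the E3 enzyme and the lipoate cofactor of E2, 11 were called lower and none higher. They included Bola3 (-0.76, adjusted p = 5.2e-05), Mecr (-0.68), Iscu (-0.71) and Ndufab1 (-0.58), and Dld, the E3 gene, also fell (-0.46, adjusted p = 0.0232 by edgeR). Of 9 genes of related 2-oxoacid dehydrogenases, 6 were called lower, with Bckdhb (-0.98), Bckdha (-1.07), Dbt (-0.75) and Dlst (-0.66) the smallest in p. Of 19 genes for pyruvate supply and other uses of pyruvate, 7 were called lower and none higher.

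Mpc1 and Mpc2, the 2 subunits of the mitochondrial pyruvate carrier, were both in that group. Mpc1 held 213, 287 and 324 CPM (lowest, median, highest) in KO-LK and 184, 295 and 359 CPM in KO-NK, against 457, 615 and 702 CPM in CT-HK and 427, 499 and 592 CPM in CT-NK. It did not overlap between genotypes, as for 0.67% of all tested genes over both diets. Its value was -0.95 on the log2 scale (SE 0.11, adjusted p = 4.7e-06 by edgeR). Mpc2 had -0.64 (adjusted p = 0.0011). Pcx, which makes oxaloacetate from pyruvate, had -1.94 (adjusted p = 0.0084), but 1 CT-HK library held 399 CPM against a median of 34.2 in that group. Ldha, for lactate dehydrogenase A, had -0.05 (adjusted p = 0.922).

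Of 17 citric acid cycle genes, 15 were called lower, with Sdhc (-0.92), Sdhb (-0.96), Idh3g (-0.73) and Idh2 (-0.86) smallest in p. Of 20 genes of fatty acid oxidation, 13 were called lower, with Echs1 (-0.96), Etfa (-0.71), Hadh (-0.81) and Hadhb (-0.62) smallest in p. Of 19 glycolysis genes, 6 were called lower and 1 higher. The higher one, Pfkfb3, which makes the activator of phosphofructokinase, averaged 77.3 CPM in KO-LK and 176 CPM in KO-NK, against 68.6 CPM in CT-HK and 70.7 CPM in CT-NK, and was 0.74 over both diets. On log2(TPM + 1) over both diets, 2 of the genes for E3 and lipoate attachment were lower and 1 higher, 2 of the related dehydrogenases lower and 1 higher, and 1 of the pyruvate genes lower and 2 higher. On that scale 8 citric acid cycle genes stayed lower and none was higher, whereas 3 fatty acid oxidation genes were lower and 5 higher, and 1 glycolysis gene was lower and 6 higher, where 30.3% of all tested genes were called higher and 1.29% lower. In KO-NK over CT-NK alone edgeR called 3 citric acid cycle genes, 1 of fatty acid oxidation and 1 for lipoate attachment lower, and in KO-LK over CT-HK 14, 12 and 7. The counts over both diets stand beside 10.5% of all tested genes called.

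**Figure D5:**
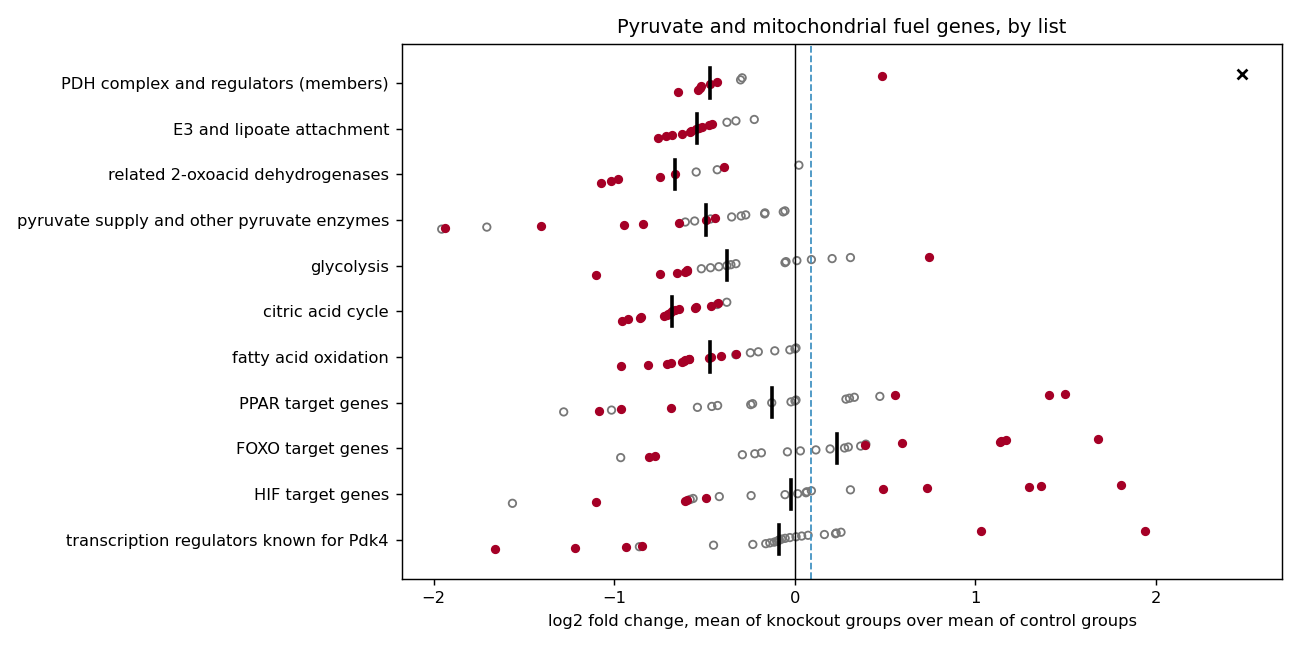
Log2 fold change of knockout over control, both diets, for each gene of the lists, with filled red points called at an adjusted p below 0.05, open points not called and a cross for Pdk4, which has no test. Black bars are list medians (Pdk4 left out) and the dashed line is the median of all tested genes, 0.09; the citric acid cycle median is -0.68.

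Genes known to act on Pdk4 did not move as 1 group. Of 25 transcription regulators, 2 were called higher and 4 lower over both diets. Across all tested genes 4.67% were called higher and 5.86% lower. Nr4a1, an immediate early nuclear receptor, held 380 to 1374 CPM in KO-LK and 658 to 1911 CPM in KO-NK, against 68.8 to 364 CPM in CT-HK and 37.5 to 654 CPM in CT-NK, with some overlap between genotypes, and was 1.94 higher on the log2 scale (adjusted p = 0.00061 by edgeR). Cebpb was also higher (1.03). Klf15, a corticosteroid-responsive factor, held 18.8 to 28.7 CPM in KO-LK and 17.8 to 34.6 CPM in KO-NK, against 73.7 to 128 CPM in CT-HK and 46.7 to 90.9 CPM in CT-NK, with a log2 fold change of -1.66. Nr3c2 (-0.94), Esrra (-0.85) and Ppara (-1.22) were lower. Nr3c2 is the gene floxed in these mice, so its call belongs to the design and is not a finding about regulators of Pdk4.

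Nr3c1, the glucocorticoid receptor gene, stood at 0.26 on the log2 scale (adjusted p = 0.338), and Foxo1 at -0.07 (adjusted p = 0.88). Among 21 tested PPAR target genes, 3 were called higher and 3 lower, with Acot1 (1.41) higher and Acadm (-0.69) lower among them. Without the 8 libraries rich in receptor genes, none of 20 PPAR target genes was called higher by edgeR and 1 was lower. Without those libraries 848 of all 22357 tested genes were called higher over both diets and 1119 lower. Among 20 FOXO target genes, 6 were higher and 2 lower, with Klf6 (1.68), Cited2 (1.17) and Trib1 (1.14) higher and Sod2 (-0.77) lower. Among 20 HIF target genes, 5 were higher and 4 lower, with Egln3 (1.81) and Ndrg1 (1.36) higher and Aldoc (-1.10) and Bnip3 (-0.60) lower. Beside the PPAR, FOXO and HIF counts stand 4.67% of all tested genes called higher and 5.86% lower over both diets. On log2(TPM + 1) these lists had 14 regulators, 7 PPAR, 13 FOXO and 10 HIF genes higher, and 1, 0, 1 and 1 lower, beside 30.3% of all tested genes called higher on that scale.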

How the data were processed

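RNA from dissected tubules was made into cDNA (SMART-Seq HT) and Nextera XT libraries, per the labels' protocols. Salmon and build GRCm38.p6 are named in the submitters' processing notes. The authors deposited expected counts (estimated counts per gene, 35.9% of them not whole) and TPM for 54393 genes in 23 libraries, all of which entered.

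After rounding, these counts entered edgeR 4.0.16 (R 4.3.3): TMM scaling, filterByExpr, 1 mean per group over all libraries (19 residual degrees of freedom), quasi-likelihood F tests and Benjamini-Hochberg adjustment over 25829 genes, with a threshold of 0.05. An adjusted p printed for a gene is edgeR's unless DESeq2 1.42.0 or limma 3.58.1 (on log2(TPM + 1)) is named beside it. Log2 fold changes are from the fit on counts. Per-library ratios were tested with permutation tests in scipy 1.17.1. The pipeline was tested on simulated counts. No duplicated library was found among 55 pairs within groups. The lowest count of any of the 10 genes in any library was 152.

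The members, lists and tests were chosen with earlier results of these data known. Named genes are the members, up to 4 called genes of smallest p per list and those most like Pdk4; Dld, Ldha, Cebpb, Ppara, Nr3c1 and Foxo1 were added after their values were seen, for their known roles. Some genes that this rule names are not reported here. Alternatives were DESeq2, its size factors, no filter and a stricter one, TPM with 2 pseudocounts, a length offset, a replicate block, tubule segment covariates, only the groups compared, leaving out receptor-rich libraries and leaving out each library. Salmon can share reads between Pdha1 and the opposite-strand gene Map3k15 over 603 of 3734 exon bases, where Map3k15 had a median count of 35.3 against 8347 for Pdha1.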

Additional observations from a re-analysis of the deposited data

Results flagged for a closer look

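Among 48 groups of values checked, 2 held a library far from the others, about as many as chance gives at 1 in 20. Pdk4 stood at 30.91 CPM in CT-NK replicate 3, where the other 4 CT-NK libraries held 7.54 to 11.3 CPM. That gap was 0.84 of the group's range. Pdp1 stood at 29.86 CPM in KO-LK replicate 5, where the other 5 KO-LK libraries held 19.5 to 22.8 CPM, a gap of 0.68 of the range.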

How the results depend on the processing

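Of the 9 genes other than Pdk4, edgeR called none in KO-NK over CT-NK, but 1 with DESeq2, 6 with a filter of 5 CPM in 5 libraries, 1 on log2(TPM + 1), 1 on log2(TPM + 0.1) and 1 without the receptor-rich libraries. Leaving out single libraries gave 0 to 1, the 1 being Pdp1 without KO-NK replicate 3 (adjusted p = 0.0048 by edgeR). In KO-LK over CT-HK, 5 were called, but 3 with no filter, 8 with the stricter filter, 1 with either TPM pseudocount and 3 without the receptor-rich libraries. Over both diets 7 were called, but 1 with either TPM pseudocount, 5 with no filter (Pdk3 and Pdp1 lost), 6 with the segment covariates (Pdp1 lost), 8 with the stricter filter (Pdk2 gained) and 6 to 7 when single libraries were left out. The cause was not tested, except that the stricter filter tests 12421 genes and no filter 51822. Beside these stand the calls over all genes, higher and lower. Over both diets those were 2157 and 2585 with the stricter filter and 586 and 1106 with no filter. With the segment covariates they were 820 and 1125. In KO-NK over CT-NK they were 103 and 176 without the receptor-rich libraries and 2940 and 128 on log2(TPM + 0.1). In KO-LK over CT-HK they were 6730 and 221 on that last scale. With CPM in place of TPM the Pdk4 share was 13.0% in KO-LK, 28.7% in KO-NK and 2.99% in CT-HK. Without the receptor-rich libraries the kinase to phosphatase ratio differed by -0.62 (KO-NK over CT-NK, exact permutation test, adjusted p = 0.0952) and -0.45 (KO-LK over CT-HK, exact permutation test, adjusted p = 0.0893), each with no overlap and the smallest p that the libraries left allow before adjustment. Pdk4 kept its direction in the 2 knockout comparisons and in KO-LK over KO-NK under all alternatives, at 2.97 to 3.73, 1.43 to 2.20 and -1.87 to -1.23.

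Same-numbered libraries were not more alike by median (r of -0.15 over 33 same-numbered pairs of deviations, against 0.03 over 165 others). The r ranged from -0.70 to 0.71 and from -0.72 to 0.83, and the pairs share libraries. Whether replicate numbers mark a pairing cannot be decided this way. With the replicate block, 6 of the 9 were called over both diets, as Pdk1 no longer passed (-0.47, adjusted p = 0.0638 by edgeR), and 5 in KO-LK over CT-HK. Over all genes, calls in KO-NK over CT-NK were 242 higher and 197 lower, against 578 and 572 with DESeq2, 119 and 67 with no filter, 1060 and 1402 with the stricter filter and 2907 and 134 on log2(TPM + 1). They were 589 and 330 without KO-NK replicate 3, 232 and 81 without CT-NK replicate 1 and 125 and 108 without CT-NK replicate 5. In KO-LK over CT-HK, 850 of 1418 calls were lower. Higher and lower calls there numbered 806 and 1679 with DESeq2, 297 and 528 with no filter, 1392 and 1758 with the stricter filter, 6632 and 220 on log2(TPM + 1), 747 and 558 with the length offset, 371 and 518 without the receptor-rich libraries and 1804 and 1106 with only these groups fitted. Without any 1 of the KO-LK libraries most calls there were higher (807 to 1085 higher against 500 to 632 lower), and without any 1 of the CT-HK libraries most were lower (439 to 524 against 610 to 1084).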
